A study of Mus musculus with 8 samples.

Results

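The expression of 10 genes that sense oxygen through the hypoxia-inducible factor (HIF), or that HIF activates in return, was examined in mouse acute myeloid leukemia (AML) cells. The genes were taken by name, with earlier results of these data known, and all 10 had a row among the 12823 rows of the gene table. They comprise the HIF subunits Hif1a and Arnt, the degradation adaptor Vhl, the oxygen-dependent hydroxylases Egln1, Egln2, Egln3 and Hif1an, and the targets Pdk1, Bnip3 and P4ha1. RNA was sequenced from 4 libraries of newly generated leukemia (new AML) and 4 libraries of the leukemia after 5 serial transplantations (aggressive AML), and the labels describe the samples of each group as biological replicates. In both groups, mouse bone marrow progenitors had received a retrovirus (pMSCV) carrying the leukemia fusion MLL-AF9 and an EGFP gene driven by the pgk promoter, so every library carries the fusion and no library is of normal cells. New AML arose in sublethally irradiated recipients, whereas the passages that gave aggressive AML were made in non-irradiated, immunologically normal mice. GFP+ cells were sorted from the bone marrow of young adult C57BL/6 mice, described as male, before RNA extraction. The comparison is of aggressive AML with new AML, which differ in passage and in the irradiation of the recipients. The labels describe aggressive AML as derived from the new AML cells, and nothing says that the samples of a group go back to separate transductions, so p-values measure only the spread between these samples.

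HIF is a pair of proteins, an oxygen-labile alpha subunit such as HIF1A and the constant partner ARNT. When oxygen is at hand, the prolyl hydroxylases EGLN1, EGLN2 and EGLN3 (also called PHD2, PHD1 and PHD3) mark the alpha subunit, VHL binds the marked protein and a ubiquitin ligase sends it to degradation, while HIF1AN (also called FIH) blocks its coactivator contact. When oxygen falls, the alpha subunit persists and switches on genes for glucose use, mitochondrial turnover and matrix assembly, and EGLN3 among its own hydroxylases, which closes a feedback loop. Bone marrow is a tissue of low oxygen. HIF1A is controlled mostly at the protein level, which RNA counts do not show.

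Total counts ranged from 7805544 to 9697777 per library, and levels are given as CPM, the count of a gene relative to its library total after TMM scaling. The defining leukemia markers were present in both groups, with Hoxa9 at 301 ± 8.67 CPM in the new and 322 ± 25.3 CPM in the aggressive libraries (SD, n = 4). The 4 measured Y-linked genes summed to between 2315 and 2574 counts in each new AML library and to 0 counts in each aggressive AML library, which allows up to 3 counts. The 0 counts go against the description of the mice as male if it also holds for the donor cells, and whether both groups share their origin was not tested. The libraries thus also differ in Y-linked RNA, and the labels name no batch, so that a batch which follows the group cannot be told apart from passage. In sorted bulk RNA, fewer cells of a type and less RNA per cell cannot be told apart.

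Among the 10 genes, the oxygen-labile subunit Hif1a, the hydroxylase Egln3 and all 3 targets were called higher in aggressive AML, and none was called lower. These 5 of 10 genes passed an adjusted p of 0.05 in edgeR's quasi-likelihood test, against 18.2% of all 12494 tested genes (8.04% called higher and 10.2% called lower). Since the genes were chosen with earlier results known, shares of them are a description only. In 6 of 10 genes the groups had no overlap, 5 with aggressive AML above and 1 with it below, against 21.8% of all tested genes in either direction and 9.76% with aggressive AML above. The median log2 fold change of the 10 genes, aggressive AML over new AML, was 0.23, and that of all tested genes was 0.00045. Bnip3 had the largest fold change, at 1.90-fold, followed by Egln3 at 1.67-fold, Pdk1 at 1.46-fold, Hif1a at 1.26-fold and P4ha1 at 1.22-fold. The remaining 5 genes, namely Arnt, Vhl, Hif1an, Egln1 and Egln2, did not pass the test, and their log2 fold changes lay between -0.23 and 0.17.

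**Figure D1:**
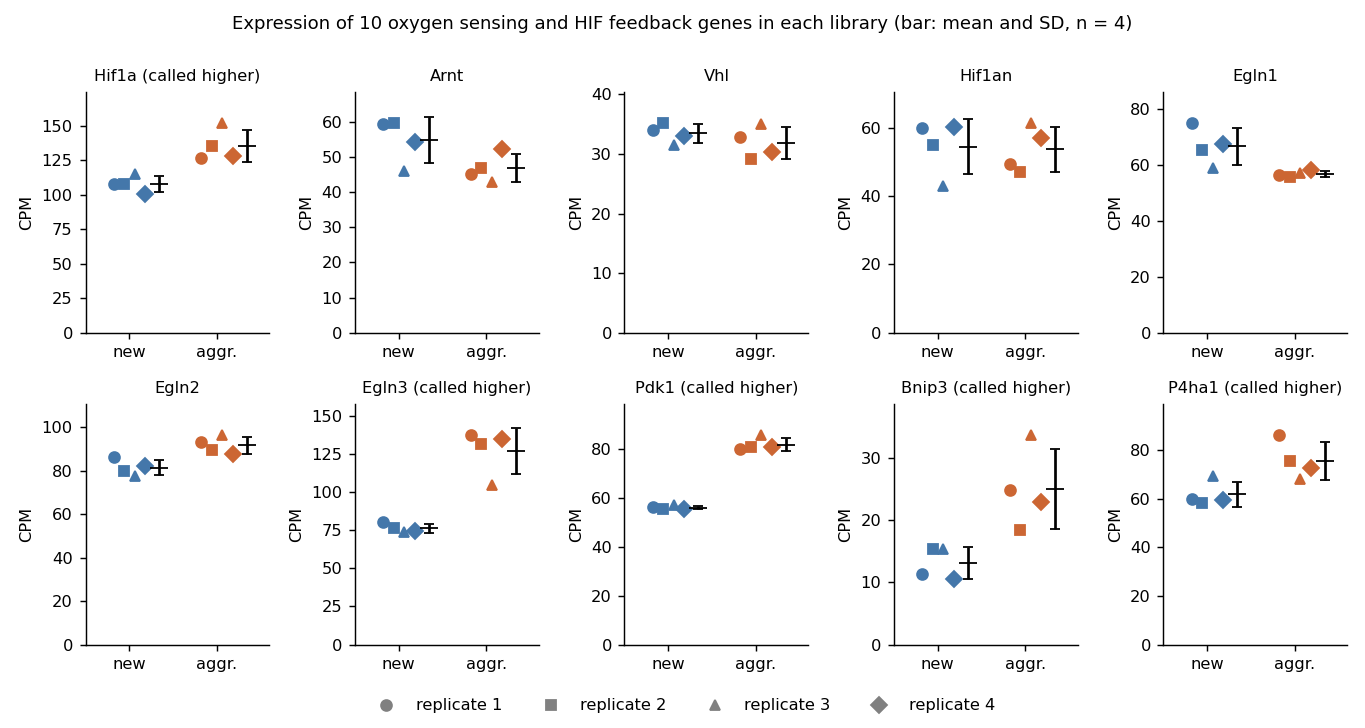
Expression of each of the 10 genes in CPM (vertical axes, starting at 0) in the new and aggressive AML libraries, with a marker shape for each replicate and bars for the mean and SD (n = 4). The 4 aggressive AML libraries sit above every new AML library for Hif1a, Egln2, Egln3, Pdk1 and Bnip3 and below every one for Egln1.

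Hif1a, which encodes the subunit that oxygen destabilises, was measured at 108, 108, 115 and 100.3 CPM in new AML and at 126, 136, 152 and 128 CPM in aggressive AML. Every aggressive AML library lay above every new AML library, with aggressive AML replicate 3 the highest. Its mean of 108 ± 6.00 CPM in new AML stood against 136 ± 11.7 CPM in aggressive AML (SD, n = 4). The edgeR log2 fold change was 0.33 ± 0.08 (SE), with an adjusted p of 0.00989. On the annotation, 5.6% of the Hif1a exon bases are shared with the antisense gene Gm15283 and 2.51% with Gm49321, and the strand setting of the counting is not given in the sources used here. Arnt, the partner subunit, had 59.4, 59.7, 45.9 and 54.4 CPM in new AML and 45.1, 46.9, 42.9 and 52.2 CPM in aggressive AML. The groups overlapped, since new AML replicate 3 lay within the aggressive AML range, and the log2 fold change of -0.23 (95% interval -0.45 to -0.01) did not pass the test (adjusted p = 0.141).

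The 2 subunits of the pair thus had fold changes of opposite sign, and their ratio was taken within each library, where the library size cancels. The log2 ratio of Hif1a to Arnt counts averaged 0.98 ± 0.23 in the new and 1.54 ± 0.22 in the aggressive libraries (SD, n = 4), and the groups touched at new AML replicate 3 (1.32) and aggressive AML replicate 4 (1.30). The difference of 0.55 had an exact two-sided permutation p = 0.0571, or 0.0761 after adjustment over 8 such ratios. The smallest p that the 70 choices of 4 of 8 libraries allow is 0.0286. Against Vhl, the log2 ratio of Hif1a ran from 1.60 to 1.86 in new AML and, without overlap, from 1.94 to 2.22 in aggressive AML. The difference was 0.40 (exact permutation p = 0.0286, adjusted p = 0.0458). That adjusted p is under 0.05 only because the 8 ratios include some that were added after seeing the data.

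Vhl and Hif1an, which act on the alpha subunit after or beside the prolyl hydroxylases, gave overlapping groups. Vhl had 34.1, 35.2, 31.6 and 33.0 CPM in new AML and 32.9, 29.1, 35.0 and 30.4 CPM in aggressive AML, a log2 fold change of -0.07 (95% interval -0.29 to 0.15, adjusted p = 0.674). Hif1an had 59.7, 54.9, 42.8 and 60.2 CPM in new AML and 49.3, 47.0, 61.3 and 56.9 CPM in aggressive AML, a log2 fold change of -0.02 (95% interval -0.27 to 0.23, adjusted p = 0.916). For both genes the intervals include changes of either sign, and the replicates numbered 3 were the lowest in new AML and the highest in aggressive AML.

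**Figure D2:**
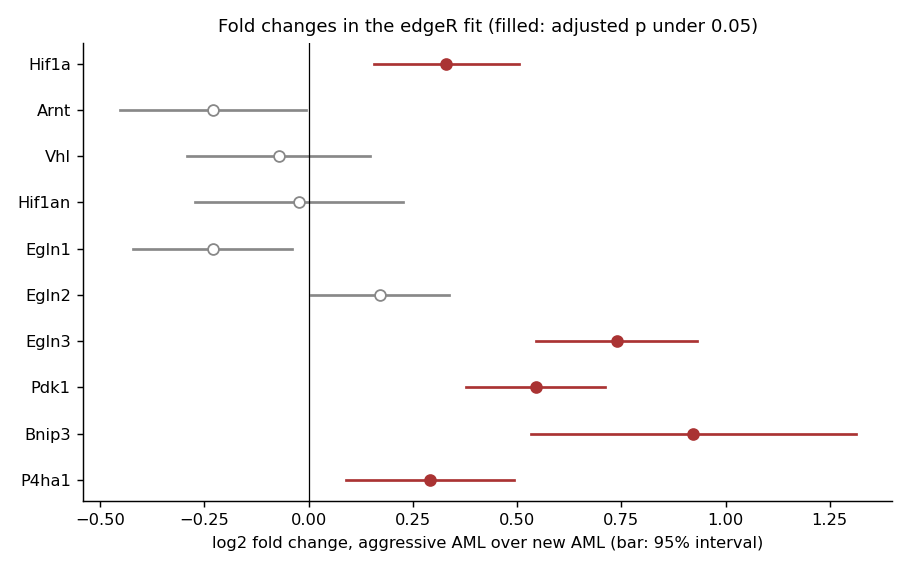
Log2 fold change of aggressive AML over new AML (horizontal axis) for the 10 genes, with 95% intervals and filled points for an adjusted p under 0.05 in the edgeR fit. Bnip3 (0.92) and Egln3 (0.74) lie farthest to the right, and the intervals of Vhl and Hif1an include 0.

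Among the prolyl hydroxylases, Egln3 passed the test and Egln1 and Egln2 did not. Egln3, the hydroxylase that HIF itself induces, had 80.4, 76.1, 73.6 and 74.6 CPM in new AML and 137, 132, 105 and 135 CPM in aggressive AML. The groups were far apart, and aggressive AML replicate 3 was the lowest of its group. The edgeR estimate on the log2 scale was 0.74 ± 0.09 (SE), with an adjusted p of 2.99e-05, and it was exceeded in the upward direction by 4.59% of the tested genes. Egln2, a broadly expressed hydroxylase, had 86.2, 79.8, 77.7 and 82.0 CPM in new AML and 93.2, 89.4, 96.4 and 87.8 CPM in aggressive AML. Its groups did not overlap, but the log2 fold change of 0.17 (95% interval 0.01 to 0.34) did not pass after adjustment (adjusted p = 0.141). Egln1, the main hydroxylase of HIF1A in most tissues and also a HIF target, had 74.8, 65.3, 58.8 and 67.4 CPM in new AML and 56.4, 55.5, 57.1 and 58.0 CPM in aggressive AML. All aggressive AML libraries were below all new AML libraries, by a narrow margin at new AML replicate 3, and the log2 fold change was -0.23 (95% interval -0.42 to -0.04, adjusted p = 0.0872). Without new AML replicate 3, Egln1 (adjusted p = 0.0368) and Arnt (adjusted p = 0.0452) were called lower.

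Compared per kilobase of transcript, so that levels of different genes can be set side by side, the makeup of the 3 hydroxylases differed between the groups. Egln3 held 31.6, 32.5, 32.8 and 31.4% of their summed counts per kilobase in new AML and 44.7, 44.5, 37.4 and 45.1% in aggressive AML. Its share was 10.9 percentage points higher in aggressive AML (exact permutation p = 0.0286, adjusted p = 0.0429 over the 3 shares). Egln1 held 20.7 ± 0.98% before and 14.2 ± 0.67% after passage (SD, n = 4; exact permutation p = 0.0286, adjusted p = 0.0429). Egln2 held 47.2 ± 0.53% and 42.9 ± 3.12%, and here aggressive AML replicate 3, at 47.5%, lay within the new AML range (exact permutation p = 0.0857). Since the 3 shares sum to the whole, they are not independent of each other. The log2 ratio of Egln3 to Egln1 went from 0.20 ± 0.10 to 1.15 ± 0.19 and that of Egln3 to Egln2 from -0.10 ± 0.03 to 0.46 ± 0.23 (SD, n = 4), both without overlap (exact permutation p = 0.0286, adjusted p = 0.0458). Here too, the adjusted p is under 0.05 only because the adjustment includes ratios that were added after seeing the data.

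**Figure D3:**
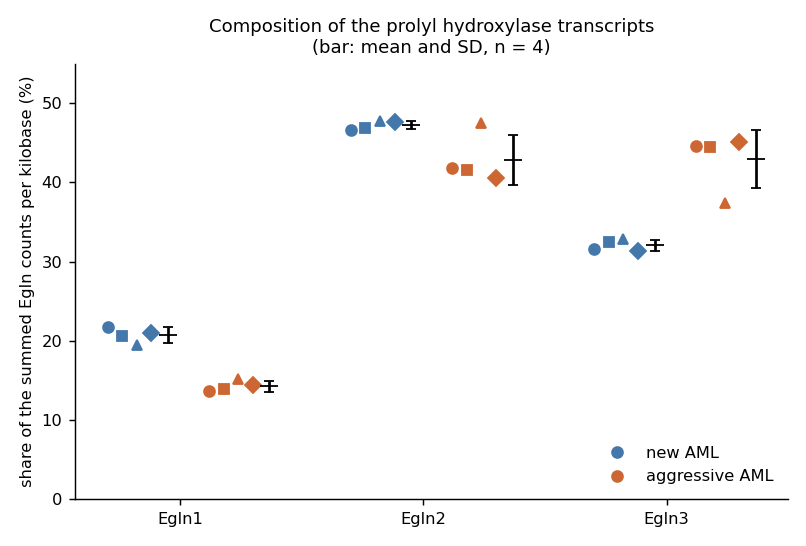
Share of Egln1, Egln2 and Egln3 in their summed counts per kilobase (vertical axis, percent) in each library, with bars for the mean and SD (n = 4). Egln3 sits between 31.4 and 32.8% in new AML and between 37.4 and 45.1% in aggressive AML, while Egln1 sits lower in every aggressive AML library.

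The stretches before the starts of Egln3 and Egln1 are shown because these 2 hydroxylases, both known as HIF targets, had fold changes of opposite sign. Each is the 250 bases before the RefSeq start on GRCm38.p6, written 5′ to 3′ on the gene's own strand, which is the minus strand for both. Capitals mark the hypoxia response core, searched as ACGTG or GCGTG on either strand, so that CACGT and CACGC also count and overlapping matches form 1 run. Egln3 (chr12:54203875-54204124) has 1 core that begins at base -229 from the start, and Egln1 (chr8:124949255-124949504) has 2, at -126 and -68.
Egln3: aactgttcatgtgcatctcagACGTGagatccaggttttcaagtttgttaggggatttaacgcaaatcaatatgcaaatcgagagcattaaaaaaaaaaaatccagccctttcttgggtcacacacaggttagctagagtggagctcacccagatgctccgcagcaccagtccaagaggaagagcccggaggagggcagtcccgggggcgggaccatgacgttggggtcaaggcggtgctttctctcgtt
Egln1: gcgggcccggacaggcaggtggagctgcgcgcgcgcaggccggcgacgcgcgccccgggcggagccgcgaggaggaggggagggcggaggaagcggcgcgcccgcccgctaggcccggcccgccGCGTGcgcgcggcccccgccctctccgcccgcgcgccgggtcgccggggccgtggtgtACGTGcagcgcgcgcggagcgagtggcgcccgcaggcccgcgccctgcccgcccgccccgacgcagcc
Letters of this core are common: 38.6% of the 32851 promoters in the RefSeq table hold at least 1 in these 250 bases, as do 61.2% of the 9315 tested genes found there. Among the 10 genes, 8 hold it (80%), the exceptions being Vhl and Hif1an. The Hif1a window and parts of the Arnt, Pdk1 and P4ha1 windows lie inside the RefSeq spans of these genes. A match is a description of letters and does not show that HIF binds there, and sites outside these windows were not searched.

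**Figure D4:**
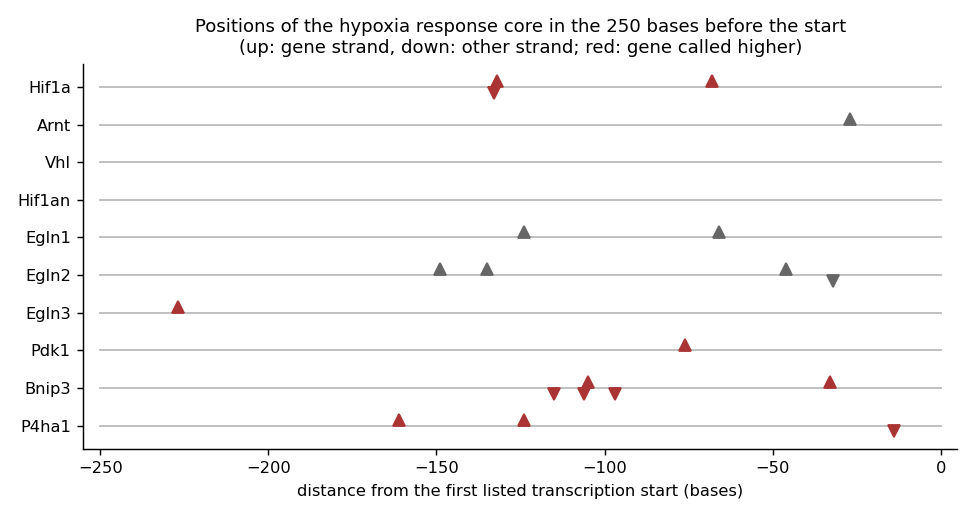
Positions of the core letters in the 250 bases before the start of each of the 10 genes (horizontal axis, bases from the first listed start), with triangles pointing up for the gene's strand and down for the other, in red for genes called higher. Egln3 has 1 core near the far end of the window, Bnip3 has 5 matches, and Vhl and Hif1an have none.

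The 3 targets were higher in aggressive AML. Pdk1 encodes a kinase that inactivates pyruvate dehydrogenase and so keeps pyruvate out of the mitochondrial cycle. It had 56.2, 55.4, 56.9 and 55.4 CPM in new AML and 80.0, 80.6, 85.7 and 80.6 CPM in aggressive AML. The groups lay far apart, and the SD of 0.721 CPM in new AML was the smallest of the 10 genes relative to the mean. On the log2 scale the difference was 0.54 ± 0.08 (SE; adjusted p = 0.000131). Bnip3, a mitochondrial outer membrane protein that recruits the autophagy machinery, had 11.3, 15.3, 15.4 and 10.6 CPM in new AML and 24.8, 18.4, 33.7 and 22.9 CPM in aggressive AML. It was the least abundant of the 10 genes by CPM and had the largest SD relative to its mean in aggressive AML, with replicate 2 the lowest and replicate 3 the highest, and the groups did not overlap. The log2 fold change of Bnip3 was 0.92 (SE 0.18, 95% interval 0.53 to 1.31, adjusted p = 0.00239). On the annotation 22.3% of the Bnip3 exon bases are shared with the antisense gene Gm45507, so that the origin of those reads is uncertain.

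P4ha1 encodes the catalytic subunit of the collagen prolyl 4-hydroxylase, an enzyme of matrix assembly that is distinct from the EGLN sensors. Its values were 59.9, 58.4, 69.5 and 59.3 CPM in new AML and 86.2, 75.6, 68.0 and 72.5 CPM in aggressive AML. The groups overlapped because the replicates numbered 3 were the highest of new AML and the lowest of aggressive AML. In the edgeR fit its log2 fold change came to 0.29 ± 0.10 (SE; adjusted p = 0.0417). This call was the least stable of the 5, since it held in 3 of 8 fits that left out 1 library: without new AML replicates 1, 2 or 4 or aggressive AML replicates 1 or 2 it was lost, with adjusted p up to 0.14.

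Within libraries, Pdk1 and Bnip3 were compared with measured relatives and P4ha1 with its partner subunit. Pdk3, another pyruvate dehydrogenase kinase, had a log2 fold change of 0.17 (adjusted p = 0.220), and the log2 ratio of Pdk1 to Pdk3 went from 0.13 ± 0.09 to 0.50 ± 0.08 (SD, n = 4) without overlap (exact permutation p = 0.0286, adjusted p = 0.0458). Against Pdk2, which lay near 2 CPM, the ratio of Pdk1 differed by 0.39 with wide scatter (exact permutation p = 0.514). Bnip3l, the paralog of Bnip3, had a log2 fold change of 0.29 that did not pass (adjusted p = 0.0712). The log2 ratio of Bnip3 to Bnip3l differed by 0.61, from -2.23 ± 0.46 to -1.62 ± 0.26 (SD, n = 4), with groups that overlapped at new AML replicate 3 (exact permutation p = 0.0857, adjusted p = 0.0979). P4hb, that partner subunit, had a log2 fold change of -0.01 (adjusted p = 0.928), and the log2 ratio of P4ha1 to P4hb went from -4.24 ± 0.12 to -3.94 ± 0.11 (SD, n = 4; exact permutation p = 0.0286, adjusted p = 0.0458). The ratios to Pdk3 and P4hb were chosen after seeing the data.

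For these 3 targets the upstream stretches are shown because they were called higher together. They are given on GRCm38.p6 in the same way as those above, and bases that lie inside the RefSeq span of the gene are left out. Pdk1 (chr2:71872974-71873214, plus strand) has 1 core, Bnip3 (chr7:138909507-138909756, minus strand) has 5 matches in 4 runs, and P4ha1 (chr10:59323046-59323196, plus strand) has 2 in the 151 bases printed and 1 more nearer its start.
Pdk1: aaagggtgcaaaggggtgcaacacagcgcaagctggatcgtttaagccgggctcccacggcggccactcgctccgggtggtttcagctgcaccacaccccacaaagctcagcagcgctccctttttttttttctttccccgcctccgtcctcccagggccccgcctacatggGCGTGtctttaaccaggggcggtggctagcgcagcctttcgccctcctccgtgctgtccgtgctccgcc
Bnip3: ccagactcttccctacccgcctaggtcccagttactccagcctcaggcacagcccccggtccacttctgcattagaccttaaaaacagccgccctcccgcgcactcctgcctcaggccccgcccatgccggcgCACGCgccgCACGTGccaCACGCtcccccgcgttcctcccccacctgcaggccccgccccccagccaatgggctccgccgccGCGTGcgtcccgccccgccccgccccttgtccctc
P4ha1: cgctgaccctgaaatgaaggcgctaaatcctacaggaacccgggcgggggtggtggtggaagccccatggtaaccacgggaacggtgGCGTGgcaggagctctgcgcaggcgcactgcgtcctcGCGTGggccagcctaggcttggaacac
One Bnip3 run, CACGTG, is read as a core on both strands. The Hif1a window holds 3 matches in 2 runs but lies inside the RefSeq span of the gene and is not printed.

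By level per kilobase of transcript, Egln2 was first in new AML at 42.2 ± 1.88 CPM per kilobase (SD, n = 4), above Egln3 at 28.6 ± 1.12 and Hif1a at 24.6 ± 1.37, and these 3 did not overlap. P4ha1 (21.2), Arnt (20.7) and Egln1 (18.5) followed with overlapping neighbours, then Vhl (12.0), Pdk1 (10.8), Bnip3 (10.6) and Hif1an (8.79). In aggressive AML the level of Egln3, 47.8 ± 5.65 CPM per kilobase, overlapped that of Egln2, 47.5 ± 2.00, so that their order there is not resolved. By median transcript length, Bnip3 went from ninth to the fifth place, at 20.2 ± 5.19 CPM per kilobase. Its range overlapped that of P4ha1 (25.9) above it and Arnt (17.6) below it. By the same lengths Hif1an (8.66) was the last in both groups. The places depend on the length used. The 1237.5 bases taken for Bnip3 lie between its 2 coding transcripts of 719 and 1756 bases, and those of Arnt run from 378 to 4325 bases. Other lengths were not tried for this order, so the places of Bnip3, Arnt and Hif1an are uncertain.

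The wider pathway was read from 6 lists of other genes, whose counts stand against the 18.2% called among all tested genes (8.04% higher and 10.2% lower). These lists, too, were chosen with earlier results of these data known. Of 16 tested HIF partners and turnover factors, 2 were called higher and 1 lower, a share close to that background, with a median log2 fold change of 0.10. Cited2, a HIF target whose product competes with HIF for the coactivators CBP and p300, fell from 145 ± 3.97 to 111 ± 7.14 CPM (SD, n = 4; log2 fold change -0.38, adjusted p = 0.00201). Siah1b, of a ubiquitin ligase family that targets EGLN proteins, whose reads are uncertain because of its close copy Siah1a, rose by 0.47 (adjusted p = 0.0477), and Rack1, a ribosomal protein that also promotes HIF1A turnover, rose by 0.21 (adjusted p = 0.0452), both on the log2 scale. The 3 calls became 5 when aggressive AML replicate 4 was left out, and 1 when new AML replicate 2, aggressive AML replicate 1 or aggressive AML replicate 3 was.

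Of 27 tested other HIF target genes, 7 were called higher and 5 lower, with a median log2 fold change of 0.14. Ak4, a mitochondrial adenylate kinase (log2 fold change 2.30, from 0.395 to 1.98 CPM), was under 1 CPM in every new AML library and entered the test only through aggressive AML, so its call is no support for the list. The other large increases on the log2 scale were the transcriptional repressor Bhlhe40 (1.68), the carbonic anhydrase Car12 (1.00) and the cytokine Mif (0.64). The 4 largest decreases were the heme oxygenase Hmox1 (-0.50), the sterol regulator Insig2 (-0.47), the cyclin Ccng2 (-0.45) and Ndrg1 (-0.36). The count of 12 fell to 4 when new AML replicate 2 was left out, to 5 for new AML replicate 4 or aggressive AML replicate 1, and to 6 for aggressive AML replicate 2.

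Of 21 tested genes of glucose uptake and glycolysis, 9 were called higher and 3 lower, with a median log2 fold change of 0.23. Leading increases on the log2 scale were the lactate exporter Slc16a3 (1.19), the glucose transporter Slc2a1 (0.56), the enolase Eno1 (0.51) and the kinase Pgk1 (0.45). Those called lower were Pfkfb4, which sets the level of a phosphofructokinase activator (-0.72), and the hexokinases Hk2 (-0.34) and Hk1 (-0.26).

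The last 3 lists hold the genes nearest in function to Pdk1, Bnip3 and P4ha1. Among 12 genes of pyruvate dehydrogenase control, only the phosphatase Pdp2, which reverses the action of the kinases, was called, and it was lower (log2 fold change -0.39, adjusted p = 0.0298; list median 0.07), and it was lost without new AML replicates 1 or 2 or aggressive AML replicates 1 or 2. In the mitophagy list 0 of 15 genes passed the edgeR test, while 4 had an unadjusted p under 0.05, and DESeq2 and limma also called 0. Without new AML replicate 4 or aggressive AML replicate 2 the mitophagy count was 1. Of 9 collagen and related hydroxylases, the lysyl hydroxylases Plod1 (-0.37) and Plod3 (-0.41) were lower and none was higher (list median -0.01), also a share near that of all tested genes. The difference between any 2 lists was not tested.

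**Figure D5:**
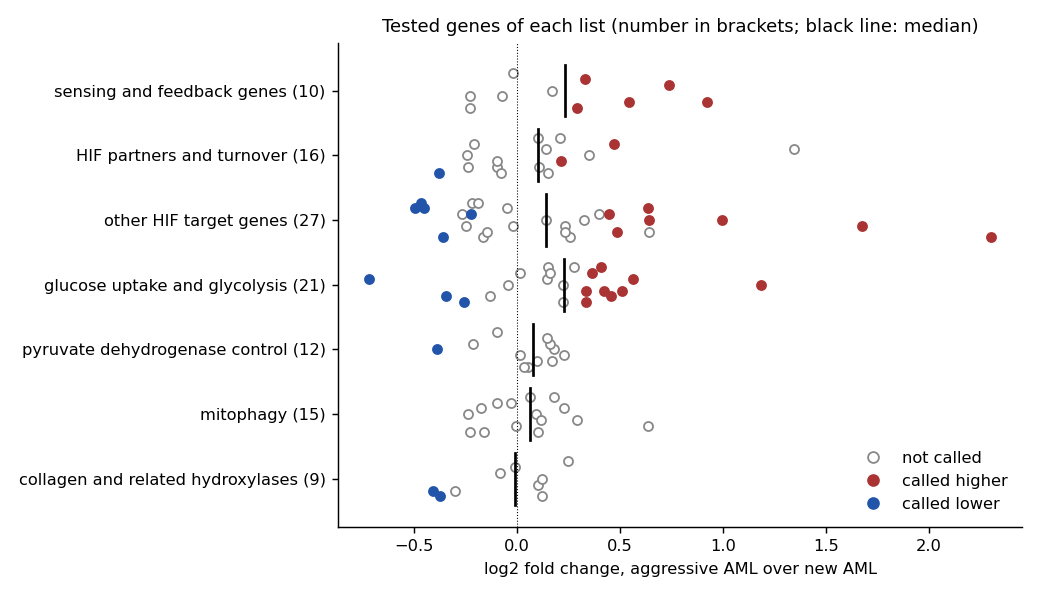
Log2 fold change of aggressive AML over new AML (horizontal axis) for every tested gene of the 10 sensing and feedback genes and the 6 pathway lists, with the number tested beside each list, filled points for called genes and black lines for the medians. Called genes lie on both sides of 0 in the HIF partner, HIF target and glycolysis lists, while the mitophagy list has none.

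Markers of maturing myeloid cells also differed between the groups, beside the genes above. Of 9 tested neutrophil genes 7 were called lower, against 10.2% of all tested genes. Cxcr2 and Ly6g were not called, and Ly6g had a positive log2 fold change (0.31). The summed level of the 9 was 266 to 387 CPM in new AML and 132 to 183 CPM in aggressive AML. The most abundant neutrophil gene, S100a8, fell from 117 ± 21.0 to 64.7 ± 14.9 CPM, while S100a9, Ltf, Ngp, Camp, Retnlg and Mmp9 also fell. Retnlg and Mmp9 had all new AML libraries but only 1 aggressive AML library at 1 CPM or more. These 2 genes entered the test only through new AML, so their calls are no support within the 7. Among leukemia markers, Meis1 (0.45) and the progenitor receptor Kit (0.65) rose on the log2 scale and the myeloid integrin Itgam fell (-0.61). Mpo, the most abundant (-0.20), and Cd33 (0.51) were not called. Macrophage genes, with Cd68 the most abundant, had 1 of 4 called lower (Adgre1) and a summed level of 208 to 250 CPM in new AML against 156 to 207 CPM. Erythroid genes, led by Hbb-bs, had 1 of 7 called lower (Slc4a1), a share near the 10.2% of all tested genes. Their summed level was 26.9 to 99.8 CPM in new AML against 10.01 to 53.0 CPM. Few lymphocyte markers were tested, with 1 gene of 8 for T cells (Lck, 3.31 CPM in new AML) and 1 of 6 for NK cells (Klrk1, 5.33 CPM in new AML). For B cells 1 of 6 was tested, Cd79b, at 36.3 CPM in new AML and, without overlap, lower at 32.1 CPM in aggressive AML. Of 5 megakaryocyte genes 2 were tested (Itga2b and Gp1ba). None of these lymphocyte and megakaryocyte genes was called. The part of these shifts in the changes of the 10 genes was not tested.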

How the data were processed

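RNA-seq of GFP+ mouse leukemia cells was deposited as 1 table of 8 libraries, 4 per group by their labels. Per the study's methods, polyadenylated RNA was sequenced from both ends, aligned to mm10 with HISAT2 and counted per gene with Rsubread, and genes under 1 CPM were removed. The deposited values are named CPM but are whole-number counts with a different total per library, so they were used as counts. Genes that reached 1 CPM in 4 or more libraries were tested (12494, with 329 left out) by edgeR 4.0.16 in R 4.3.3 (TMM, robust quasi-likelihood, group only, two-sided, Benjamini-Hochberg over all tested genes, threshold 0.05). Log2 ratios used counts plus 0.5 and exact permutation tests. Lengths are medians of GENCODE vM21 coding transcripts, and coordinates and promoters come from RefSeq on GRCm38.p6, where all 10 genes matched. The members and lists were chosen with earlier results of these data known. Named genes were the 10 members, of each pathway list at most the 4 called genes with the largest fold change in each direction, of each marker list its most abundant and called genes, and for each called member the 2 genes of at least 10 CPM most correlated with it, of which 1 is not reported here. The ratios to Pdk3 and P4hb were added after seeing the data, and P4ha2 was not analysed here. Without them, no planned ratio would have an adjusted p under 0.05. The fit was tested on simulated data. Alternatives were DESeq2 1.42.0, limma 3.58.1, other scalings and filters, a replicate block and each library left out.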

Additional observations from a re-analysis of the deposited data

Results flagged for a closer look

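In 5 of 38 groups of 4 values, 1 library lay far from the other 3 by Dixon's test at the 95% level, where chance marks about 1 in 20 groups. The 38 groups are not independent, since the ratios and the Egln3 share reuse the counts of the same genes. The count of 5 therefore cannot be set strictly against that rate. All 5 concern a library numbered 3. In aggressive AML replicate 3, Pdk1 was the highest at 85.7 CPM, the share of Egln3 among the prolyl hydroxylases was the lowest at 37.4%, and the log2 ratio of Egln3 to Egln2 was the lowest at 0.12. In new AML replicate 3, P4ha1 was the highest at 69.5 CPM and the log2 ratio of Hif1a to Arnt was the highest at 1.32. Without both of these libraries, an alternative added after seeing the data, 6 of the 10 genes were called instead of 5, and Egln1 was among them as lower (adjusted p = 0.0293, edgeR).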

How the results depend on the processing

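Hif1a, Egln3, Pdk1 and Bnip3 were called higher under all 18 alternatives, with log2 fold changes of 0.27 to 0.36, 0.70 to 0.82, 0.53 to 0.56 and 0.75 to 1.05. P4ha1 was called under 12 of 18. Arnt was called under 1 and Egln1 under 2, while Vhl, Hif1an and Egln2 were called under none, and the sign of the uncalled Hif1an varied (-0.19 to 0.04). Leaving out 1 library gave 4 to 7 called among the 10 genes, 1488 to 2338 among all tested genes and 17 to 29 in the pathway lists, against 5, 2278 and 30 with all libraries. The 1488 came without new AML replicate 2, and the 17 without that library or without aggressive AML replicate 1. With 3 libraries against 4, exact permutations cannot go below p = 0.0571, so the ratios and shares could not pass there, and the Egln3 share then differed by 10.1 to 12.7 percentage points. Deviations of same-numbered libraries from their group means had r = 0.06, -0.07, -0.10 and 0.30, the last the highest of any pair across the groups. These values cannot settle whether the numbers pair the libraries, and the main fit did not pair them. DESeq2 called 5 HIF partners against 3 in edgeR. A replicate block gave 4 called members, 2417 called genes and 31 in the lists (1 against 0 in mitophagy), with P4ha1 at an adjusted p of 0.0583, and the Egln3 share still differed by 10.9 points (exact sign-flip p = 0.125, the smallest possible). The ratio of P4ha1 to P4ha2 was not run. Y-linked RNA and maturation markers follow the group, so they limit every comparison here. The labels name no batch, and one that follows the group would limit them too.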

Other observations

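Genes whose log2 CPM followed each called member most closely over the 8 libraries are given as a description, since the members themselves differ between the 2 groups. For Hif1a these were the tubulin gene Tubb6 and Clic4 (Pearson's r = 0.978 for both). Egln3 was closest to the transcription factor Etv5 (r = 0.978). For Pdk1 they were the cohesin gene Stag3 (r = 0.997) and the protease inhibitor Slpi (r = 0.995). Bnip3 was closest to Sipa1l1 (r = 0.980) and the DNA primase subunit Prim2 (r = 0.973). P4ha1 was closest to the ribosomal protein gene Rpl27 (r = 0.975) and the tubulin gene Tuba4a (r = 0.974).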
